A study of Mus musculus with 40 samples.

Results

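Livers of mice that lack Nampt in hepatocytes (HNKO) were compared according to their level of Spp1, the gene of the secreted matrix protein osteopontin. Of 40 sequenced libraries, 19 came from HNKO mice and were not marked Failed QC, and the class of each of these 19 was chosen by its measured Spp1 level, log2(CPM + 1) with counts scaled to the total count of the library, minus the mean of the HNKO libraries of the same day. The 9 libraries above 0 formed the high-Spp1 class and the 10 libraries at or below 0 the low-Spp1 class. HNKO mice carried floxed Nampt alleles (Nampt fl/fl) and Cre recombinase driven by the albumin promoter, and Nampt is therefore deleted in hepatocytes but kept in the other cells of the liver. WT livers, 19 libraries, came from floxed littermates without Cre. All mice, WT and HNKO, were 9-week-old C57BL/6JBomTac females that were moved from breeding chow to a purified control diet (PD), and livers were taken at 3, 6, 12 or 21 days. The study's methods describe these as days of PD feeding, whereas the sample labels give them as the age in days. Each library was total RNA, depleted of ribosomal RNA, from a piece of whole liver of 1 mouse.

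Nampt makes nicotinamide mononucleotide from nicotinamide and is the rate-limiting enzyme of the salvage route to NAD. Osteopontin is made in the liver by biliary epithelial cells and by the immature ductal cells that appear around the portal tracts of injured livers, and also by macrophages and activated stellate cells. It binds integrins and CD44, attracts macrophages and is commonly found raised where ductal cells expand and collagen is deposited. A ductular reaction is recognised by epithelial genes such as Krt7, Krt19, Epcam and Sox9, and fibrosis by fibrillar collagens and their crosslinking enzymes. The comparison asks which other genes vary with Spp1 between HNKO livers of the same day.

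Spp1 was above WT in each HNKO liver, but its level differed widely between mice on the same day. WT livers ranged from 4.73 to 5.38 and HNKO livers from 6.59 to 9.81 on the log2(CPM + 1) scale, so the lowest HNKO liver lay above the highest WT liver. On day 3 the values were 8.73, 8.16 and 8.77 in the high class (libraries 2, 3 and 23) and 6.71 and 6.66 in the low class (4 and 22). On day 6 they were 9.81 and 8.28 in the high class (29 and 30) and 7.17, 7.66 and 8.08 in the low class (6, 7 and 31). The livers of day 3 fell into well separated levels, while on day 6 a single liver, 29, stood far above the other 4. On day 12 the high class held 7.76, 7.37 and 7.32 (12, 13 and 36) and the low class 7.11, 6.59 and 6.75 (11, 32 and 35). On day 21 the values were 9.17 in the high class (37) and 7.01 and 7.91 in the low class (38 and 40). The range between the highest and the lowest HNKO liver was thus 2.12, 2.64, 1.17 and 2.15 at the 4 days, and was smallest on day 12. The libraries nearest to the boundary were 30, at 0.08 above its day mean, and 11, at 0.04 below (-0.04). Since Spp1 chose the classes, these values are a description and Spp1 was not tested.

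**Figure D1:**
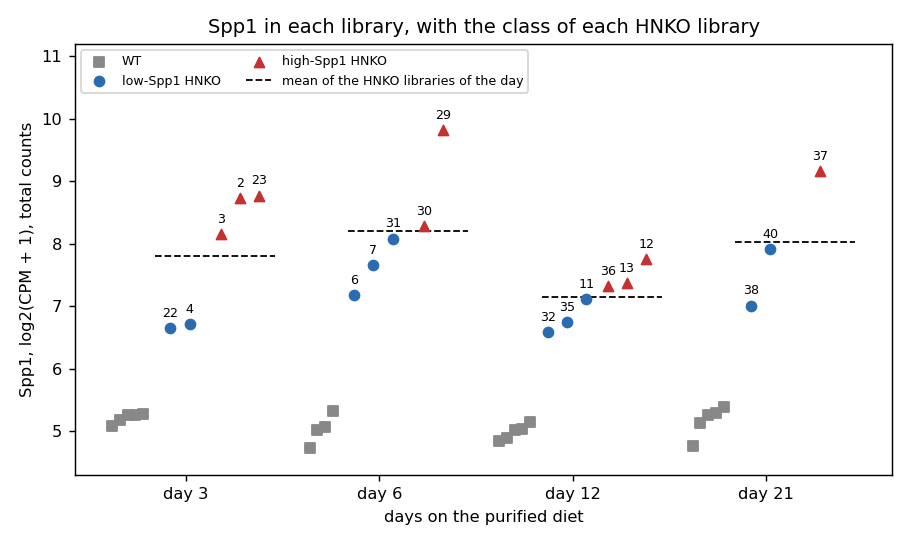
Spp1 in log2(CPM + 1) of each library by days on PD, for WT (grey squares), low-Spp1 HNKO (blue circles) and high-Spp1 HNKO livers (red triangles, library numbers beside the points). The dashed lines are the means of the HNKO libraries of a day, which divide the classes, and the 19 WT libraries lie between 4.73 and 5.38, below all HNKO libraries.

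In GRCm38, Spp1 (ENSMUSG00000029304.14) is a protein-coding gene on the plus strand of chromosome 5, from 104435118 to 104441050, and 18.8% of its exonic bases lie in a gene on the same strand, Gm42793. Total counts of the 19 HNKO libraries ranged from 16151037 to 34720845, and their class means did not differ beyond the spread within days (difference of day-centred means -3402750 counts, exact permutation test within days, two-sided p = 0.22). The shares of mitochondrial counts (2.59% to 6.76% in the high class, 2.77% to 6.29% in the low class, exact permutation p = 0.396) and of the 10 most abundant genes (exact permutation p = 0.557) gave no difference that passed the test. The TMM scaling factor was higher in the high class, with medians of 1.05 and 0.969 (exact permutation p = 0.0065), and calls under other scalings are given below. Nampt itself was below all WT livers in 9 of 9 high-Spp1 and 8 of 10 low-Spp1 livers and gave no difference between the classes that passed the test (log2 fold change -0.09 ± 0.13 SE, adjusted p = 0.748). Library 35, a low-Spp1 liver of day 12, stood apart in its ductal keratins. Library 11, a low-Spp1 liver of the same day, stood apart in skeletal muscle actin.

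High-Spp1 livers had higher levels of 18 of 30 cell cycle genes, 9 of 21 recruited macrophage genes, 13 of 47 matrix genes and 7 of 20 p53 targets, and lower levels of 7 of 18 periportal hepatocyte and 5 of 28 bile acid genes. With day as a covariate and Spp1 left out, edgeR's quasi-likelihood test called 569 genes higher (2.86% of the 19890 tested genes) and 289 genes lower (1.45%) at an adjusted p-value under 0.05, together 4.31%. The median size of a called log2 fold change was 0.59, the median over all tested genes was -0.00095, and 4257 genes had an unadjusted p under 0.05. On the scale centred on the mean of each day, the libraries of the classes did not overlap in 26 higher (0.131% of all tested genes) and 7 lower genes (0.0352%). A class by day interaction was called by edgeR in 0 genes, with 870 genes (4.37%) at an unadjusted p under 0.05. In these whole-liver samples, a change in the number of cells of a type and a change in RNA per cell cannot be told apart.

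The number of called genes depended strongly on a few livers. It fell to 17 higher and 6 lower genes without library 29, to 22 and 4 without library 37, to 67 and 11 without library 22 and to 187 and 58 without library 4, which are the 4 livers whose Spp1 lay farthest from the mean of their day. It was between 254 and 367 higher and 103 and 157 lower genes without libraries 31, 2, 32, 6, 23, 38 or 40, taken 1 at a time. It rose to between 824 and 1018 higher and 490 and 679 lower genes without libraries 7, 11, 30, 35 or 36. Without libraries 29 and 37 together, and without the 5 libraries of day 3, no gene was called by edgeR, with 2237 and 2411 genes at an unadjusted p under 0.05. Without day 21, 11 genes were higher and 1 was lower. Of the 115 called genes that were named by the rule or listed as markers, 0 changed sign in any of the fits. These genes were chosen by their call and the fits share most of their libraries, so that count does not measure stability. Of these genes 17 were called in all 19 fits that left out 1 library and 85 in at least 15 of them. The split of calls depended on the scaling: 66.3% of the calls were higher with TMM factors, 54.7% with DESeq2 and 92.4% (1926 higher, 159 lower) with total counts alone, which moved the median of all genes by 0.145. DESeq2 called 12 of 18 periportal, 10 of 28 bile acid and 15 of 30 hepatocyte genes lower, and 20 of 47 matrix, 11 of 30 collagen and 10 of 28 chemokine genes higher, each more than edgeR, with 1 gene lower in each of the last 3 lists. Over all genes DESeq2 called 1062 higher and 881 lower, where edgeR called 569 and 289, so more calls in a list are not particular to it. DESeq2 also called 8 of 32 lipid synthesis genes higher and 3 lower, and 2 of 35 genes of NAD metabolism higher and 6 lower. It called 3 of 7 neutrophil and 3 of 13 fetal liver genes higher and 3 of 21 pericentral genes lower. In these lists edgeR called fewer. The calls of Abcg5, Abcg8, Akr1d1, Amacr, Asl, Asns, Col6a3, Cyp2e1, Flt3, Gstm3, Kmo, Ltbp2, Mki67, Otc, Pdgfrb and Serpina1c were lost in most of the 19 fits that left out 1 library. All fold changes below are log2 values, high minus low unless WT is named, relative to the TMM scale, and p-values are those of edgeR adjusted over all tested genes.

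**Figure D2:**
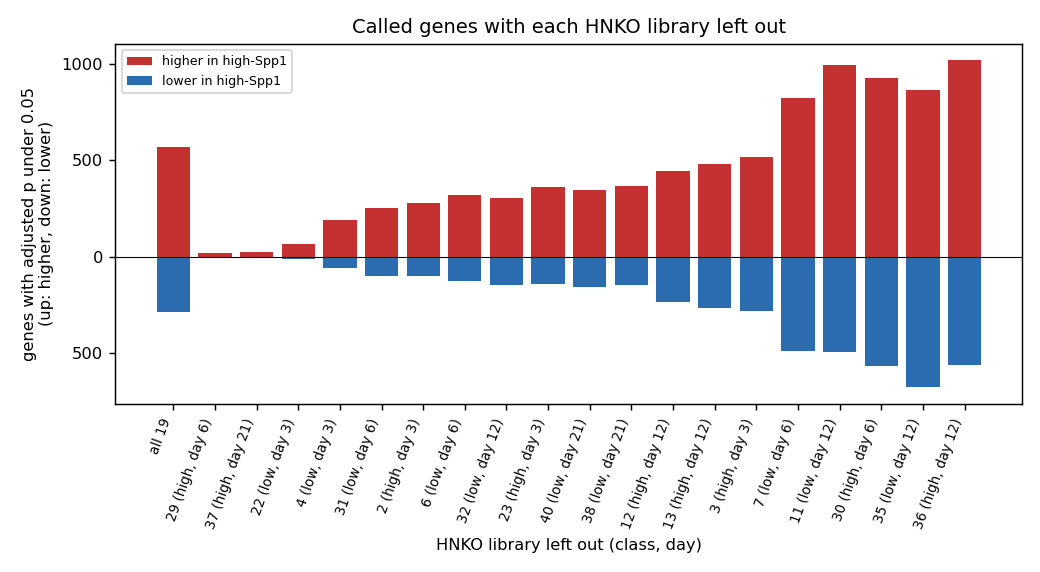
Number of genes with an adjusted p-value under 0.05 in the high minus low comparison (upward bars, higher in high-Spp1 livers, and downward bars, lower) for all 19 HNKO libraries and with each library left out in turn, labelled by its number, class and day. The bars shrink from 569 and 289 to 17 and 6 without library 29 and to 22 and 4 without library 37.

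Cell cycle genes had a higher median than the other gene lists over all 19 libraries, the next being the 7 neutrophil genes at 0.94, but without library 11 the neutrophil genes were at 1.36 and the cell cycle genes at 1.15. Of 30 genes of DNA replication and mitosis, 18 were higher in high-Spp1 livers and 0 were lower, with a median log2 fold change of 1.09 beside the -0.00095 of all tested genes. Cdk1, the kinase that drives entry into mitosis, had its lowest, median and highest level at 0.66, 2.43 and 2.87 log2 CPM in high-Spp1 livers, at 0.35, 1.03 and 2.44 in low-Spp1 livers and at -1.1, 0.31 and 1.80 in WT livers. The classes overlapped, yet 7 of 9 high-Spp1 livers lay above the mean of their day and 1 of 10 low-Spp1 livers did, and the classes differed by 1.2 ± 0.25 SE on the log2 scale (adjusted p = 0.0197). Bub1, a kinase of the spindle checkpoint, differed by 1.66 ± 0.36 (adjusted p = 0.0203), and Kif11, a spindle motor, by 1.14 ± 0.25 (adjusted p = 0.0218). The replication helicase subunits Mcm2, Mcm3 and Mcm5 were higher by 0.81, 0.57 and 0.89, and Mki67, the gene of the Ki67 antigen, by 1.29 (adjusted p = 0.0485). This call was made in 6 of the 19 fits that left out 1 library. Mki67 was at 3.69, 5.54 and 5.96 log2 CPM in high-Spp1 and 2.48, 3.64 and 5.0 in low-Spp1 livers. The G1 cyclins Ccnd1 (0.28), Ccne1 (-0.08) and Ccne2 (0.03) and the replication clamp Pcna (0.24) did not pass the test. At the 4 days in order the difference for Cdk1 was 2.21, 0.93, 0.50 and 1.08, and it was largest on day 3. The count of 18 became 0 without library 29 or library 37, 1 without library 22, 3 without library 4, 9 without library 31 and 11 without library 2 or library 32. The median of the list stayed between 0.91 and 1.25 in the 19 fits that left out 1 library.

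Promoters of these cell cycle genes are shown because the genes moved together and because mitotic genes are known for CCAAT boxes, bound by NF-Y, and for the cell cycle homology region, TTTGAA, near their start sites. In windows of 250 bases before and 50 bases after the start (RefSeq, GRCm38.p6), 15 of the 18 higher genes had an entry. CCAAT on either strand was found in 15 of these 15 promoters and TTTGAA on either strand in 10, whereas 37.4% and 17.9% of all 32851 promoters held them. Over all 23 promoters found for the 30 listed genes, the shares were 78.3% and 47.8%. The windows below are stretches of 30 bases before the start, 5′ to 3′ on the strand of the gene, with the motif in capitals (ATTGG and TTCAAA are the motifs read on the other strand), at chr10:69352913-69352942 for Cdk1, chr4:118437344-118437373 for Cdc20, chr19:37376351-37376380 for Kif11 and chr12:116405406-116405435 for Ncapg2, a gene outside the list that had among the smallest p-values. The last is from a promoter of Spp1 itself, with CCAAT on the other strand 41 bases before the start, at chr5:104435053-104435082. The window of Cdc20 also holds CCAAT, 3 bases before the start, but only its TTTGAA is in capitals.
Cdk1: ctttaccgcggcgagTTTGAAactgctggc
Cdc20: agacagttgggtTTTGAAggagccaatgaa
Kif11: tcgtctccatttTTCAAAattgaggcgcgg
Ncapg2: tacgcgggtgtgTTTGAAtctggtccgagc
Spp1: ctccacctcctgATTGGtggagactgtctg
The motifs were searched by their letters alone, and a match is a description of the sequence. Mitotic genes were already known for both motifs, so their shares were largely set by the choice of the list. CCAAT, shown for Spp1, was found in 37.4% of all promoters, and a factor common to these genes was not tested.

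Of 20 listed targets of p53, the factor that halts division after DNA damage, 7 were higher, 0 were lower and the median was 0.29. Cdkn1a, which encodes the cyclin-dependent kinase inhibitor p21, had its lowest, median and highest level at 1.70, 3.11 and 4.38 log2 CPM in high-Spp1 livers, 1.02, 1.5 and 2.3 in low-Spp1 livers and -0.75, 1.15 and 3.54 in WT livers. Its log2 fold change was 1.66 ± 0.29 SE (adjusted p = 0.0126). For this gene 8 of 9 high-Spp1 livers but 1 of 10 low-Spp1 livers were above the mean of their day. The death receptor gene Tnfrsf10b (1.21 ± 0.24), Gtse1 (1.19 ± 0.25), Phlda3 (1.05 ± 0.25), Eda2r (0.91 ± 0.20), Plk2 (0.42 ± 0.09) and Bax (0.40 ± 0.11) were the other called members. Mdm2 (0.18) and Ccng1 (0.17), which p53 also induces, did not pass the test. The 7 calls became 0 without library 29 or 37, 1 without library 22 and 4 without library 4.

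The ductal genes, against which the class label was checked, passed the test in few cases. Of 34 tested genes of ductal and oval cells, 5 were higher in high-Spp1 livers and 0 were lower, with a median log2 fold change of 0.32. The called genes were Tnfrsf12a, the receptor of TWEAK that is induced in injured liver (1.67 ± 0.27 SE, adjusted p = 0.0113), the tight junction gene Cldn4 (1.43 ± 0.34, adjusted p = 0.0292), the keratins Krt8 (0.68 ± 0.12, adjusted p = 0.0124) and Krt18 (0.54 ± 0.11, adjusted p = 0.0191), which hepatocytes also make. The last was Sox9, a transcription factor of biliary and immature ductal cells (0.61 ± 0.14, adjusted p = 0.0218). Sox9 differed by 0.00094 among libraries 1 to 21 and by 0.89 among libraries 22 to 41. Tnfrsf12a had levels of 2.73, 4.0 and 5.57 log2 CPM in high-Spp1 and 1.88, 2.39 and 3.15 in low-Spp1 livers, beside 0.90, 1.67 and 2.36 in WT livers. Of the stretches of 51 bases in Krt8 transcripts, 29.5% also occur in other genes, most in the pseudogene Krt8-ps. The 5 calls became 2 without library 22, 29 or 37. Cldn4 was called in 11 of the 19 fits without 1 library, with a largest adjusted p of 0.119, and was lost without libraries 2, 4, 22, 29, 31, 32, 37 or 40.

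The keratins and adhesion genes that define bile duct cells did not pass the test. Krt19 had its lowest, median and highest level at 0.28, 1.33 and 1.96 log2 CPM in high-Spp1 livers and at 0.10, 1.12 and 5.31 in low-Spp1 livers, with -1.13, -0.18 and 1.45 in WT livers. The highest of all HNKO values, 5.31, belonged to library 35, a liver of the low class, and the class medians were close. It differed by -0.82 ± 0.59 (adjusted p = 0.47), and 0.09 without library 35. Epcam was at 1.39, 2.16 and 2.64 log2 CPM in the high class and 1.49, 1.87 and 3.41 in the low class, where 3.41 was again library 35. Its log2 fold change was -0.05 ± 0.25 (95% interval -0.57 to 0.47, adjusted p = 0.938), and 0.20 without library 35. Krt7 differed by 0.21 ± 0.35 (adjusted p = 0.794), or by 0.46 without that library. Ncam1, a marker of reactive ductal cells, by 0.81 ± 0.33 (adjusted p = 0.158). These genes were nevertheless above WT in both classes: Epcam by 1.44 in low-Spp1 and 1.39 in high-Spp1 livers (adjusted p = 3.8e-07 and 1.2e-07) and Krt19 by 2.17 and 1.17 (adjusted p = 3.3e-04 and 0.0265). Without library 35 the low-Spp1 livers were above WT by 1.12 in Krt19 (adjusted p = 0.00326) and by 1.19 in Epcam (adjusted p = 2.35e-07), and the high-Spp1 livers by 1.15 and 1.39 (adjusted p = 0.00048 and 6.3e-10). The Pearson correlations of their day-centred values with Spp1, a description, were -0.07 for Krt19 and 0.10 for Epcam over the 19 libraries, and 0.17 and 0.36 over the 18 without library 35. Without library 35, 7 of 34 ductal genes were higher and the median was 0.41.

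**Figure D3:**
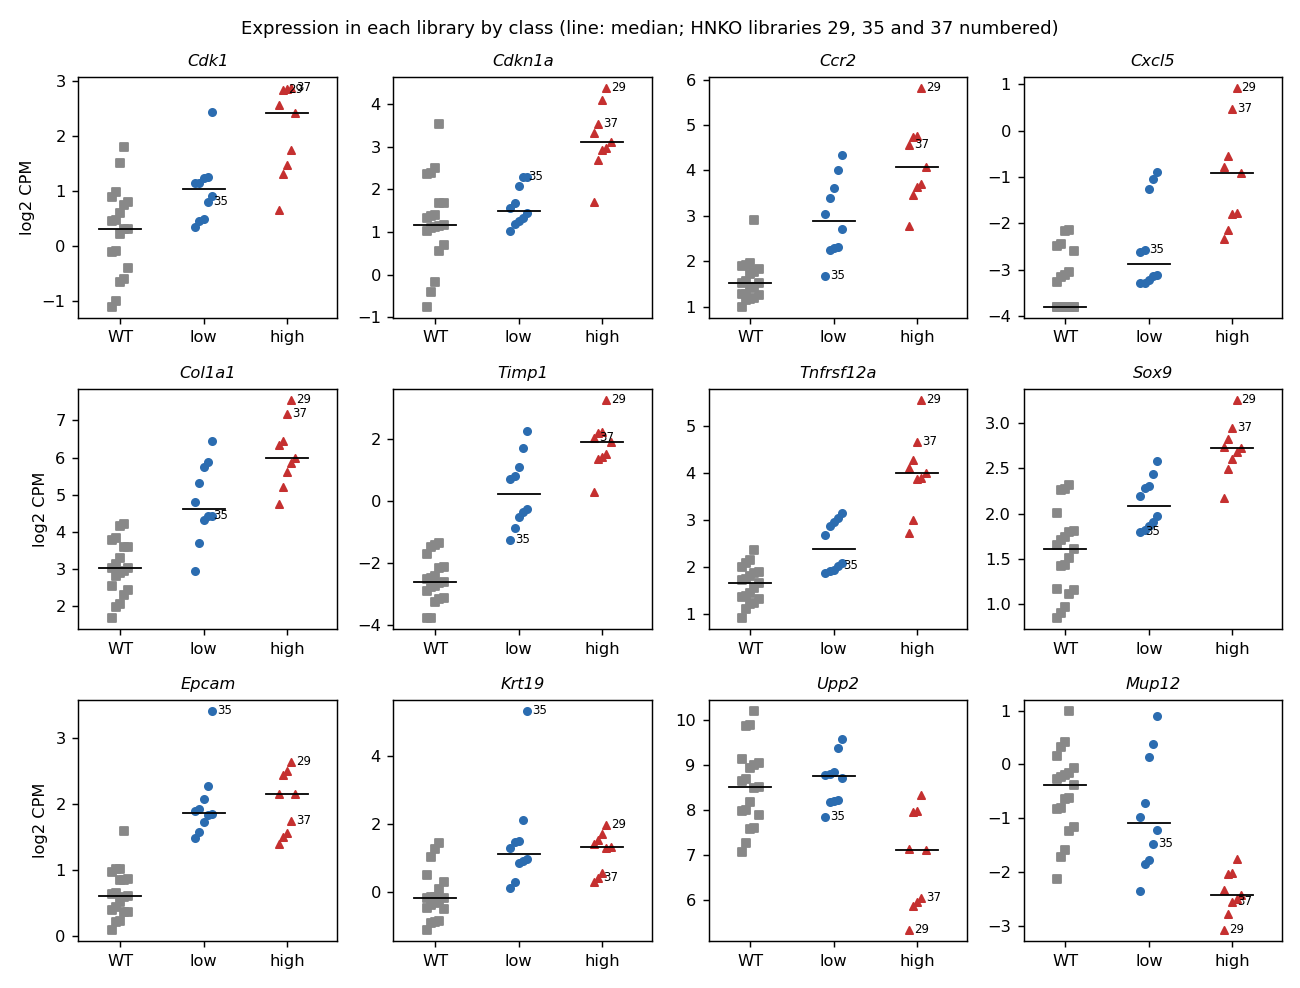
Log2 CPM of 12 genes in each library of WT (grey squares), low-Spp1 HNKO (blue circles) and high-Spp1 HNKO livers (red triangles), with the median of each class as a line and HNKO libraries 29, 35 and 37 numbered. Cdk1, Cdkn1a, Ccr2, Cxcl5, Col1a1, Timp1, Tnfrsf12a and Sox9 had higher medians in the high class and Upp2 and Mup12 lower ones, while for Epcam and Krt19 the highest point is library 35 of the low class.

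Collagens, the structural proteins of scar tissue, were higher in part of their chains. Of 30 tested collagen chains, 7 were higher and 0 were lower, with a median log2 fold change of 0.46. Col1a1, a chain of fibrillar type I collagen, had its lowest, median and highest level at 4.75, 5.98 and 7.56 log2 CPM in high-Spp1 livers, 2.94, 4.62 and 6.45 in low-Spp1 livers and 1.66, 3.02 and 4.21 in WT livers. Its log2 fold change was 1.5 ± 0.35 SE (adjusted p = 0.025). For this gene 8 of 10 low-Spp1 livers as well as 9 of 9 high-Spp1 livers were above all WT livers. Col3a1 (1.23 ± 0.34), the basement membrane chains Col4a1 (0.66 ± 0.12) and Col4a2 (0.50 ± 0.12), Col5a1 (0.70 ± 0.15), Col6a3 (1.08 ± 0.28) and Col12a1 (0.90 ± 0.20) were the other called chains. Col1a2, the partner of Col1a1, differed by 1.06 ± 0.30 and did not pass the test (adjusted p = 0.0523). The 7 calls became 0 without library 29 or 37, 1 without library 22, 2 without library 4, 4 without library 2, 6 or 31, 11 without library 7 and 12 without library 36. The median stayed between 0.36 and 0.58.

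Of 47 tested genes of matrix remodelling, 13 were higher and 0 were lower, with a median of 0.50. Timp1, an inhibitor of matrix metalloproteinases, had levels of 0.29, 1.92 and 3.29 log2 CPM in high-Spp1 livers, -1.25, 0.22 and 2.28 in low-Spp1 livers and -3.80, -2.62 and -1.35 in WT livers. All HNKO livers were above all WT livers for Timp1, and the classes of HNKO livers, which overlapped, differed by 1.56 ± 0.31 SE (adjusted p = 0.019). The macrophage elastase Mmp12 was higher by 1.77 ± 0.37 (adjusted p = 0.0193), the matricellular protein tenascin-C (Tnc) by 1.24 ± 0.25 (adjusted p = 0.019), the gelatinase Mmp9 by 0.87 ± 0.18 (adjusted p = 0.0193) and the collagen crosslinking enzyme Loxl2 by 0.79 ± 0.17 (adjusted p = 0.021). Of the 51-base stretches of Loxl2, 44.9% occur in another gene. Lox (1.19, adjusted p = 0.0562) did not pass. The 13 calls became 0 without library 22, 29 or 37, 6 without library 4, 7 without library 23, 6, 31, 32, 38 or 40, 8 without library 2 and 21 without library 36. The median stayed between 0.38 and 0.58.

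Of 28 genes of stellate cells and myofibroblasts, edgeR called 1, beside 2.86% of all tested genes called higher, and DESeq2 called 3 higher. The gene called by edgeR was Pdgfrb, the receptor of platelet-derived growth factor (0.58 ± 0.16 SE, adjusted p = 0.0445), a call that was lost in 12 of the 19 fits without 1 library, while 4 genes of the list were called without library 35 and 2 without library 7, 11, 30 or 36. Acta2, the smooth muscle actin of activated stellate cells, was at 2.10, 2.91 and 4.90 log2 CPM in high-Spp1 and 1.23, 2.17 and 5.06 in low-Spp1 livers and differed by 0.42 ± 0.46 (adjusted p = 0.666), with a range from 0.14 (without library 13) to 0.90 (without library 35). In the TGF-beta list, 3 of 25 genes were higher: the receptor Tgfbr2 (0.30 ± 0.07), Ltbp2 (1.12 ± 0.29), which belongs to the family of latent TGF-beta binding proteins and was called in 9 of the 19 fits without 1 library, and Fst (0.79 ± 0.19), the gene of the activin antagonist follistatin. The ligand Tgfb1 differed by 0.17 (adjusted p = 0.578). Of 11 genes of osteopontin receptors, Itga4 was higher (0.54 ± 0.12, adjusted p = 0.0208) and Cd44 differed by 0.46 (adjusted p = 0.141). Of 20 Hippo-YAP targets Ajuba was higher (0.64 ± 0.15), and DESeq2 called 2 receptor genes and 2 Hippo-YAP targets higher. By edgeR, 0 of 18 Notch genes (5 at an unadjusted p under 0.05, 2 higher with DESeq2) and 0 of 11 hedgehog genes (3 unadjusted, 1 higher and 1 lower with DESeq2) were called, where Notch1 differed by 0.26 (adjusted p = 0.0768) and Smo, the hedgehog signal transducer, by 0.31 (adjusted p = 0.0523). By edgeR, 4257 of all 19890 tested genes had an unadjusted p under 0.05. Without library 11, 2 Notch genes were higher, and 1 without library 3, 35 or 36. Of the hedgehog genes 2 were higher without library 36 and 1 without library 7, 11 or 40, and 1 was lower without library 7 or 35. Without libraries 22, 29 or 37 the calls of Itga4, Ajuba and the 3 TGF-beta genes were lost, as were those of Ajuba and the TGF-beta genes without library 4. Without library 2 or 6, 1 TGF-beta gene was called, 5 without library 36. Also, 3 receptor genes were called without library 35 and 4 Hippo-YAP targets without library 11 or 36, 3 without library 7 and 2 without library 30.

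Genes of recruited, monocyte-derived macrophages were higher in 9 of 21 cases, while those of resident Kupffer cells gave no call. Of these genes 0 were lower, 21 had a positive log2 fold change and the median was 0.56. Ccr2, the receptor by which monocytes enter tissue, had its lowest, median and highest level at 2.79, 4.07 and 5.82 log2 CPM in high-Spp1 livers, 1.67, 2.88 and 4.34 in low-Spp1 livers and 0.99, 1.51 and 2.91 in WT livers. Of the high-Spp1 livers 8 of 9 and of the low-Spp1 livers 5 of 10 were above all WT livers, with library 29 highest, and the classes differed by 1.35 ± 0.25 SE (adjusted p = 0.0148). Trem2, a lipid receptor of scar-associated macrophages, was higher by 1.22 ± 0.22 (adjusted p = 0.0148), with 9 of 9 high-Spp1 and 2 of 10 low-Spp1 livers above the mean of their day. Cx3cr1 (1.33 ± 0.28), Gpnmb (1.82 ± 0.42), Itgax (1.08 ± 0.27), Cd9 (0.67 ± 0.16), Lgals3, the gene of galectin-3 (0.68 ± 0.15), and Tyrobp (0.42 ± 0.09) were also higher, as was Mmp12. The pan-macrophage genes Adgre1 (0.09) and Csf1r (0.10) did not pass the test. Of 11 Kupffer cell genes 0 were called by edgeR (1 at an unadjusted p under 0.05, 1 higher with DESeq2) and the median was -0.03, with Clec4f at -0.10, Timd4 at -0.25 and Cd5l at 0.03, although that median was 0.12 with total counts alone and ranged from -0.10 (without library 40) to 0.015 (without library 11) with 1 library left out, and 1 gene was higher without library 11, 30 or 36. Of all 19890 tested genes, 4257 had an unadjusted p under 0.05 by edgeR. The 9 calls of recruited macrophage genes became 0 without library 29 or 37, 2 without library 22, 5 without library 4 and 14 without library 11.

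Macrophages can themselves make Spp1, and the part of these cells in the Spp1 level of a class was not tested. Summed over the 21 genes of the list, recruited macrophage genes were at 390 to 1180 CPM in high-Spp1 livers, at 356 to 810 CPM in low-Spp1 livers and at 235 to 687 CPM in WT livers. None of the 21 genes was at 0 in all 19 HNKO libraries. The sums of the 35 ductal genes were at 1526 to 4088 CPM, 1593 to 3092 CPM and 1179 to 1894 CPM, so the classes overlapped in both lists. Spp1 is not in the ductal list. The list includes Krt8 and Krt18, which hepatocytes also make, so its sum does not measure ductal cells alone. The part of hepatocytes in it was not tested.

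Chemokines that draw in monocytes and neutrophils were among the genes with large differences. Of 28 chemokine and cytokine genes, 5 were higher and 0 were lower, with a median of 0.48. Ccl2, the ligand of Ccr2, was at 1.06, 2.63 and 3.87 log2 CPM in high-Spp1 livers, -0.71, 0.99 and 2.15 in low-Spp1 livers and -2.41, -0.45 and 0.71 in WT livers. Its lowest high-Spp1 value was above the highest WT value, and it differed between the classes by 1.67 ± 0.34 SE (adjusted p = 0.0193). Cxcl5, a neutrophil attractant, was higher by 2.27 ± 0.40 (adjusted p = 0.0126), but from a median of only 5 counts per library. Cxcl14 (1.11 ± 0.24), Ccl6 (0.50 ± 0.11) and Lif (1.54 ± 0.35), a cytokine of the interleukin-6 family with a median of 9 counts, were higher as well. Of 7 tested neutrophil genes Il1r2 was higher (1.70 ± 0.36, adjusted p = 0.0198, median 9 counts), and S100a8 (1.03) and S100a9 (0.89) did not pass. Among 21 genes of lymphocytes and dendritic cells Flt3 was higher (0.90 ± 0.25). Ptprc, the pan-leukocyte gene of CD45, differed by 0.40 ± 0.12 (adjusted p = 0.0632). The 5 chemokine calls became 0 without library 29 or 37, 1 without library 22, 2 without library 4, 9 without library 30, 10 without library 36 and 13 without library 11. Il1r2 was not called without library 22, 29 or 37, while 5 neutrophil genes were called without library 11, 3 without library 36 and 2 without library 35. Flt3 was not called without library 2, 3, 4, 6, 12, 22, 23, 29, 31, 37 or 38.

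By edgeR, 0 members were called among 16 endothelial, 8 mesothelial, 8 mitochondrial mRNA, 18 clock and 16 blood, pancreas, adipose and muscle genes, with 3, 0, 1, 8 and 2 at an unadjusted p under 0.05. Over all 19890 tested genes, 4257 were under that unadjusted limit by edgeR. The medians of these lists, in the same order, were -0.01, 0.30, -0.23, -0.39 and -0.19, of which that of the endothelial genes was 0.14 with total counts alone. With 1 library left out, the median of the blood, pancreas, adipose and muscle list ranged from -0.42 (without library 22) to 0.47 (without library 35), that of the mesothelial list from -0.00060 (without library 29) to 0.61 (without library 32), that of the mitochondrial mRNAs from -0.34 (without library 35) to -0.11 (without library 29) and that of the endothelial list from -0.034 (without library 35) to 0.010 (without library 4). Without library 35, 5 clock genes were lower and 2 were higher, and 2 were lower without library 11 and 1 without library 7 or 30. Of the endothelial genes 2 were lower without library 36 and 1 without library 7, 11 or 35, and 1 was higher without library 7, 11, 13, 36 or 40. The list of blood and other tissues contained Acta1, skeletal muscle actin, which reached 7.47 log2 CPM in library 11 of the low class and 7.26 in library 37 of the high class. In that list 4 members were called higher without library 11 and 1 lower without library 7, 13 or 30. DESeq2 called 5 clock genes lower, 1 endothelial gene higher and 2 lower, 1 gene lower in the list of blood and other tissues, and 0 mesothelial genes and 0 mitochondrial mRNAs.

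Hepatocytes near the portal vein make urea and break down amino acids, and 7 of 18 genes of these cells were lower and 0 were higher, with a median log2 fold change of -0.55. Upp2, a uridine phosphorylase, had its lowest, median and highest level at 5.34, 7.12 and 8.33 log2 CPM in high-Spp1 livers, 7.85, 8.75 and 9.57 in low-Spp1 livers and 7.07, 8.51 and 10.19 in WT livers. The median of the low-Spp1 livers was close to that of WT, that of the high-Spp1 livers was lower, and the classes differed by -1.59 ± 0.36 SE (adjusted p = 0.0218). The urea cycle enzymes Otc (-0.50 ± 0.13) and Asl (-0.70 ± 0.18), the histidine-degrading enzyme Hal (-0.82 ± 0.20), the glutaminase Gls2 (-0.65 ± 0.18), the IGF-binding subunit Igfals (-0.76 ± 0.16) and the protease Ctsc (-0.50 ± 0.12) were also lower. The urea cycle genes Arg1 (-0.48) and Ass1 (-0.43) did not pass. Against WT, 13 of the 18 genes were lower in high-Spp1 livers and 1 was lower in low-Spp1 livers, beside 17.4% and 6.32% of all tested genes. The 7 calls became 0 without library 4, 22, 29 or 37, 3 without library 2, 23, 6, 31 or 38 and 4 without library 40. The median stayed between -0.63 and -0.50.

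Of 21 pericentral genes Cyp2e1, the ethanol-oxidising cytochrome, was lower (-0.67 ± 0.17 SE, adjusted p = 0.0365) and Gstm3 was higher (0.91 ± 0.25, adjusted p = 0.0449), with 28.4% of the 51-base stretches of Gstm3 found in other genes. The median was -0.14, or 0.0048 with total counts alone. Glul, the glutamine synthetase of the cells next to the central vein, differed by -0.09 (adjusted p = 0.726). Both calls were lost in at least 12 of the 19 fits without 1 library.

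Bile acid genes were lower in 5 of 28 cases and higher in 0, with a median of -0.22. These were Slc27a5, which activates bile acids for conjugation (-0.54 ± 0.13 SE, adjusted p = 0.0291), Akr1d1, a reductase of the synthesis pathway (-0.50 ± 0.14), Amacr (-0.25 ± 0.06), a racemase that acts on bile acid precursors, and Abcg5 and Abcg8 (-0.56 ± 0.14 and -0.59 ± 0.15), which together form the exporter of sterols into bile. Abcg8 was at 5.32, 6.30 and 6.68 log2 CPM in high-Spp1 livers, 6.45, 6.68 and 7.41 in low-Spp1 livers and 6.80, 7.18 and 7.80 in WT livers. Cyp7a1, the rate-limiting enzyme of bile acid synthesis, differed by -0.73 ± 0.37 (adjusted p = 0.261), and the bile salt exporter Abcb11 by -0.11. The 5 calls became 0 without library 2, 4, 22, 23, 6, 29, 31 or 37, 1 without library 12, 32 or 38, 2 without library 40, 8 without library 11, 9 without library 30 and 10 without library 7.

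Among 30 general hepatocyte genes 4 were lower, 1 was higher and the median was -0.31. Among the lower genes were Hpd of tyrosine breakdown (-0.76 ± 0.19 SE) and the antitrypsin genes Serpina1a (-0.42 ± 0.10) and Serpina1c (-0.58 ± 0.16), of whose 51-base stretches 57.3% and 79% occur in other genes. Mup20, a major urinary protein with 50.1% shared stretches, was higher (1.95 ± 0.49, adjusted p = 0.0328). It was at 5.02, 8.03 and 9.24 log2 CPM in high-Spp1 livers, 4.28, 5.64 and 7.44 in low-Spp1 livers and 2.81, 3.83 and 4.95 in WT livers. Alb differed by -0.21 ± 0.15 (adjusted p = 0.472). The 4 lower calls became 0 without library 4, 22, 29 or 37, 2 without library 2, 23, 6, 31 or 40, 8 without library 30 or 36 and 13 without library 35. Mup20 was not called without library 2, 4, 22, 6, 29, 31, 13, 37 or 38.

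Of 35 genes of NAD metabolism 2 were lower, beside 1.45% of all tested genes. Both belong to the route from tryptophan, which does not need Nampt. They were Afmid (-0.69 ± 0.13 SE, adjusted p = 0.0148), which forms kynurenine and of whose stretches 41.2% occur in another gene, and Kmo (-0.33 ± 0.09, adjusted p = 0.0414). Kmo was called in 7 of the 19 fits that left out 1 library, and the route as a whole was not tested. Aox1, an aldehyde oxidase that degrades nicotinamide derivatives, was higher (0.38 ± 0.08, adjusted p = 0.0203). The other 32 of 35 NAD genes were not called, including Naprt (-0.20), Nmrk1 (-0.22), Nnmt (-0.87, adjusted p = 0.069) and Parp1 (0.01). The median of the list was -0.12, or 0.025 with total counts alone. All 3 calls were lost without library 29 or 37, Aox1 also without library 4, and 1 of the 2 lower calls without library 2, 4, 22, 23, 6, 31, 12, 32 or 38. Lower NAD genes numbered 4 without library 3, 11 or 35 and 5 without library 30 or 36, and 2 were higher without library 30.

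Of 32 lipid synthesis genes 4 were higher and 2 were lower, with a median of 0.18 that was 0.083 without library 36, 0.11 without library 22 and 0.33 without library 35. The sterol synthesis enzymes Idi1 (1.02 ± 0.22 SE), Hmgcs1 (0.89 ± 0.22), Mvd (0.91 ± 0.24) and Lss (0.73 ± 0.17) were higher, and Srebf1, the regulator of fatty acid synthesis (-0.84 ± 0.21), and Dgat2, which completes triglycerides (-0.51 ± 0.12), were lower. Hmgcs1 was at 8.77, 9.21 and 9.62 log2 CPM in high-Spp1 livers, 7.16, 8.32 and 9.25 in low-Spp1 livers and 6.93, 8.58 and 9.31 in WT livers. WT livers covered most of the range of both classes. Sqle (0.57), Fasn (-0.22) and Scd1 (0.54) were not called. The 4 higher calls became 0 without library 22, 29 or 37, 1 without library 2, 31 or 32 and 2 without library 12 or 38. The 2 lower calls became 0 without library 2, 4, 22, 23, 29, 31 or 37 and 1 without library 6 or 38.

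Of 17 genes of the integrated stress response, 3 were higher, with a median of 0.20: Psat1 of serine synthesis (1.29 ± 0.22 SE, adjusted p = 0.0124), the asparagine synthetase Asns (0.90 ± 0.24) and the hormone Fgf21 (1.09 ± 0.21, adjusted p = 0.0162). Psat1 was called in all 19 fits without 1 library, while 1 of the 3 genes was called without library 29 or 37 and 5 genes of the list without library 11. Asns was called in 6 of the 19 fits. Fgf21 was within the range of WT livers in both classes, at 2.78, 3.49 and 4.45 log2 CPM in high-Spp1, 1.5, 2.50 and 2.98 in low-Spp1 and 0.58, 2.13 and 5.0 in WT livers. Of 18 targets of NRF2, the factor of the antioxidant response, Srxn1 was higher (0.63 ± 0.10, adjusted p = 0.0113) beside Gstm3, and Nqo1 (0.25) was not called. Ifit2 was higher among 23 interferon-stimulated genes (0.41 ± 0.10) and Mest among 13 tested fetal liver genes (0.53 ± 0.11), where Afp differed by 0.23. Ifit2 was not called without library 2, 4, 22, 29 or 37, and Mest without library 22 or 29. The NRF2 targets called numbered 5 without library 11 or 30 and 1 without library 2, 3, 4, 6, 12, 13, 22, 23, 29, 31, 32, 37, 38 or 40. The called fetal liver genes numbered 4 without library 11, 3 without library 36 and 2 without library 7, 30 or 35. The interferon-stimulated genes called numbered 3 without library 36 and 2 without library 11.

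**Figure D4:**
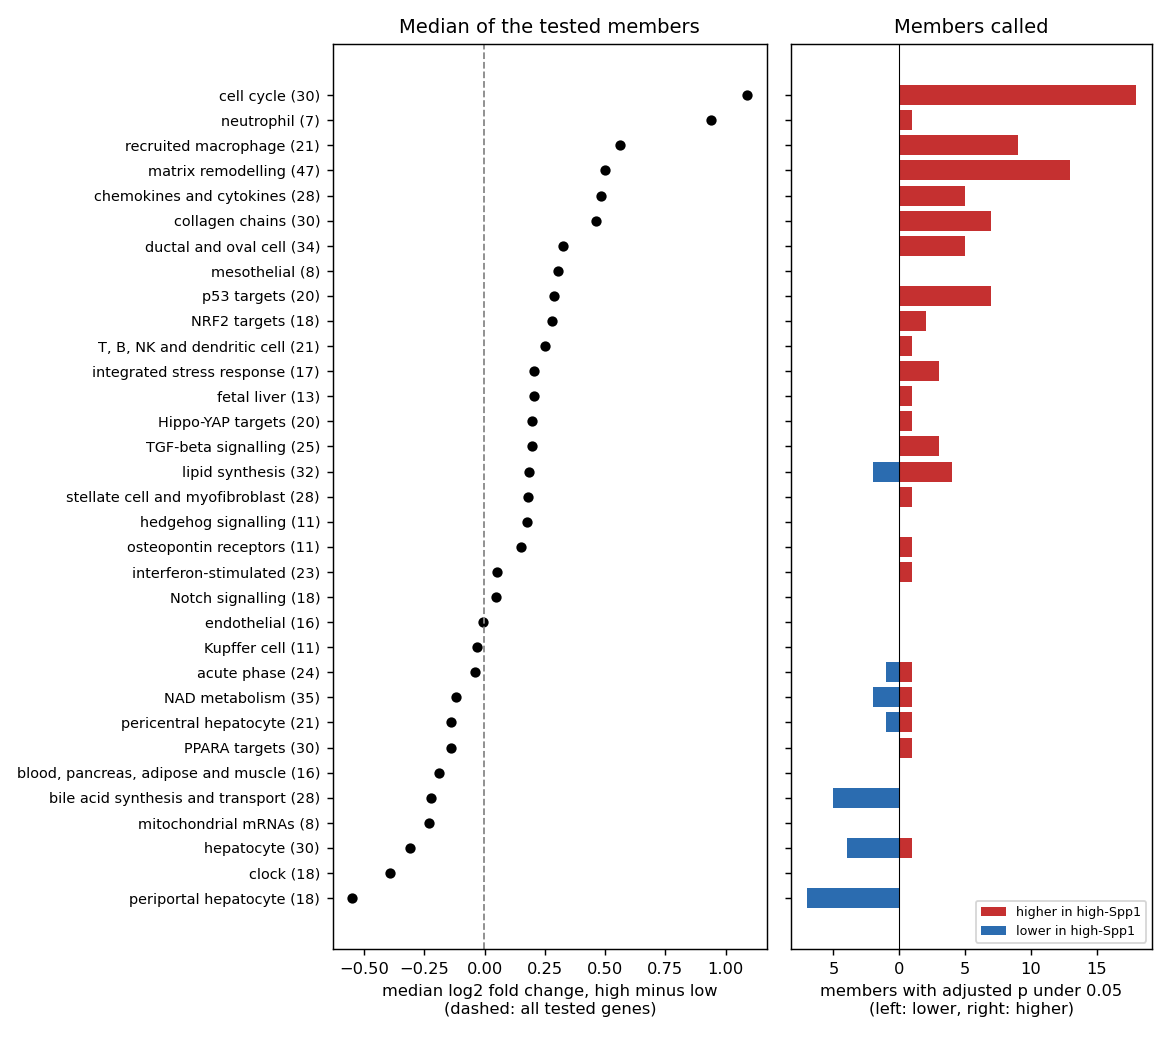
Median log2 fold change (high minus low) of the tested members of each gene list (left panel, number of tested members in brackets, dashed line the median of all tested genes) and number of members with an adjusted p-value under 0.05 (right panel, higher to the right, lower to the left). Cell cycle genes have the highest median, 1.09, with 18 of 30 higher, and periportal hepatocyte genes the lowest, -0.55, with 7 of 18 lower.

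Among the 15 higher genes with the smallest p-values, Plekha1, an adaptor that binds phosphoinositides, had its lowest, median and highest level at 4.70, 4.92 and 5.21 log2 CPM in high-Spp1 livers, 4.18, 4.33 and 4.68 in low-Spp1 livers and 3.51, 3.95 and 4.33 in WT livers. The highest low-Spp1 value lay just below the lowest high-Spp1 value. It was higher by 0.63 ± 0.08 SE (adjusted p = 0.00472). Its differences were 0.79, 0.53, 0.47 and 0.86 at the 4 days. Syt12, a synaptotagmin, was at 2.07, 2.45 and 3.33 log2 CPM in high-Spp1 and 0.55, 1.31 and 2.21 in low-Spp1 livers and was higher by 1.27 ± 0.17 (adjusted p = 0.00472). The secreted matrix protein Spon2 was higher by 1.72 ± 0.27, the transcription factor Mybl1 by 1.64 ± 0.24, the immune checkpoint gene Cd276 by 0.82 ± 0.12 and the T-cell inhibitory receptor Cd101 by 1.37 ± 0.23. Genes of division and the cytoskeleton were Ncapg2 of the condensin complex (0.86), Pkmyt1, the kinase that restrains Cdk1 (1.22), Gas2l3 (0.86) and the tubulin Tubb6 (0.69). The set also held the nucleotide hydrolase Nudt18 (0.84) and the phosphatase-like gene Mtmr11 (1.06), of whose exonic bases 37.8% lie opposite another gene, and Srxn1, Tnfrsf12a and Krt8, described above. The day-centred values of the classes did not overlap for Plekha1, Syt12, Mybl1, Spon2, Nudt18, Tubb6, Srxn1 and Krt8.

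Among the 15 lower genes with the smallest p-values, Nlrp6, an innate immune sensor, was at 5.94, 6.31 and 6.49 log2 CPM in high-Spp1 livers, 6.63, 6.77 and 7.20 in low-Spp1 livers and 6.67, 7.16 and 7.68 in WT livers. The highest high-Spp1 liver was below the lowest low-Spp1 liver, all 9 high-Spp1 livers and 4 of 10 low-Spp1 livers were below all WT livers, and the difference between the classes was -0.56 ± 0.08 SE (adjusted p = 0.00887). Dbt of branched-chain amino acid breakdown differed by -0.51 ± 0.08 (adjusted p = 0.00962), the sarcosine dehydrogenase Sardh by -0.68 ± 0.11, the glyoxylate transaminase Agxt by -0.59 ± 0.10 and the complex I subunit Ndufs7 by -0.30 ± 0.06. The phosphodiesterase Gpcpd1 differed by -0.95 ± 0.16, at 6.32, 6.77 and 7.84 log2 CPM in high-Spp1 and 7.39, 7.89 and 8.44 in low-Spp1 livers. Met, the receptor of hepatocyte growth factor, differed by -0.39 ± 0.07, the kinase Dapk1 by -0.33, the chaperone subunit Pfdn2 by -0.39, the laminin chain Lamc3 by -1.05 and Naaladl2, Wdr45b and BC024139 by -0.48, -0.35 and -0.59. Mup12 differed by -2.28 ± 0.44, at a median of 4 counts per library and with 85% of its stretches found in other Mup genes. Dbt, Gpcpd1 and Agxt did not overlap between the classes after centring on the day.

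The genes whose day-centred levels followed Spp1 most closely over the 19 libraries, counting genes whose average was 1 log2 CPM or more, were Cast, the calpain inhibitor calpastatin (Pearson r = 0.97), Marveld2 of tricellular junctions (r = 0.95), the growth factor Nrg1 (r = 0.95), Tnfrsf12a (r = 0.94), Syt12 (r = 0.94), the sphingosine phosphate receptor S1pr2 (r = 0.94), the kinesin Kifc3 (r = 0.94) and Gm13657 (r = 0.93). These values are a description, since the genes were chosen as the most alike of all genes and share library and day with Spp1. Nrg1 was at 2.17, 3.26 and 4.33 log2 CPM in high-Spp1 livers, 0.92, 1.67 and 2.64 in low-Spp1 livers and 0.18, 0.69 and 1.39 in WT livers, with little overlap between the classes. Cast was at 6.25, 6.39 and 6.52 log2 CPM in high-Spp1 livers, 6.07, 6.16 and 6.24 in low-Spp1 livers and 5.96, 6.05 and 6.17 in WT livers. The highest low-Spp1 value of Cast, 6.24, lay just below its lowest high-Spp1 value, 6.25. Kifc3 was above all WT livers in 9 of 9 high-Spp1 and 10 of 10 low-Spp1 livers.

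Set against the same 19 WT livers, both classes of HNKO livers differed from WT, the high class in more genes. In the fit of 38 libraries, 2098 genes were higher (10.7% of 19573 tested genes) and 1237 lower (6.32%) in low-Spp1 livers than in WT, together 17%. In high-Spp1 livers 4322 genes were higher (22.1%) and 3414 lower (17.4%), together 39.5%. These contrasts share their WT libraries, and no overlap between them was tested. Cell cycle genes were higher than WT in 8 of 30 cases in the low class and in 28 of 30 in the high class, with medians of 0.59 and 1.61. Ductal genes were higher in 26 and 28 of 34 (medians 1.11 and 1.38), recruited macrophage genes in 16 and 19 of 21 (0.64 and 1.06) and collagen chains in 12 and 19 (0.40 and 0.93, with 2 and 3 lower). Lists with similar medians in both classes included acute phase genes, with 18 and 15 of 24 higher (0.74 and 0.70), and targets of PPARA, the fatty acid receptor, with 21 and 22 of 30 lower (-0.57 and -0.54). Between the classes, 1 acute phase gene was higher, the endotoxin co-receptor Cd14 (1.49 ± 0.29 SE, adjusted p = 0.019). The gene that was lower was Il6ra, which binds interleukin-6 (-0.56 ± 0.12, adjusted p = 0.0198). The median was -0.04, or 0.10 with total counts alone, -0.18 without library 35 and 0.091 without library 11. Cd14 was not called without library 29 or 37 and Il6ra without library 22, 29 or 37, and DESeq2 called 2 acute phase genes higher and 3 lower. Without library 11, 6 acute phase genes were higher and without library 30, 2, while 3 were lower without library 35 and 2 without library 7. Among PPARA targets edgeR called 1 gene between the classes, Fgf21, and DESeq2 called 5 higher and 2 lower. The median was -0.14, or 0.0029 with total counts alone, -0.046 without library 32, -0.054 without library 37, -0.063 without library 7 and -0.086 without library 29. Fgf21 was not called without library 29 or 37, and 4 PPARA targets were higher without library 11, 3 without library 30 and 2 without library 7, 12, 13 or 35, where 2 were also lower without library 35. Cdkn1a did not pass the test against WT in low-Spp1 livers (0.11, adjusted p = 0.867) and was higher than WT in high-Spp1 livers (1.86, adjusted p = 1.0e-05).

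**Figure D5:**
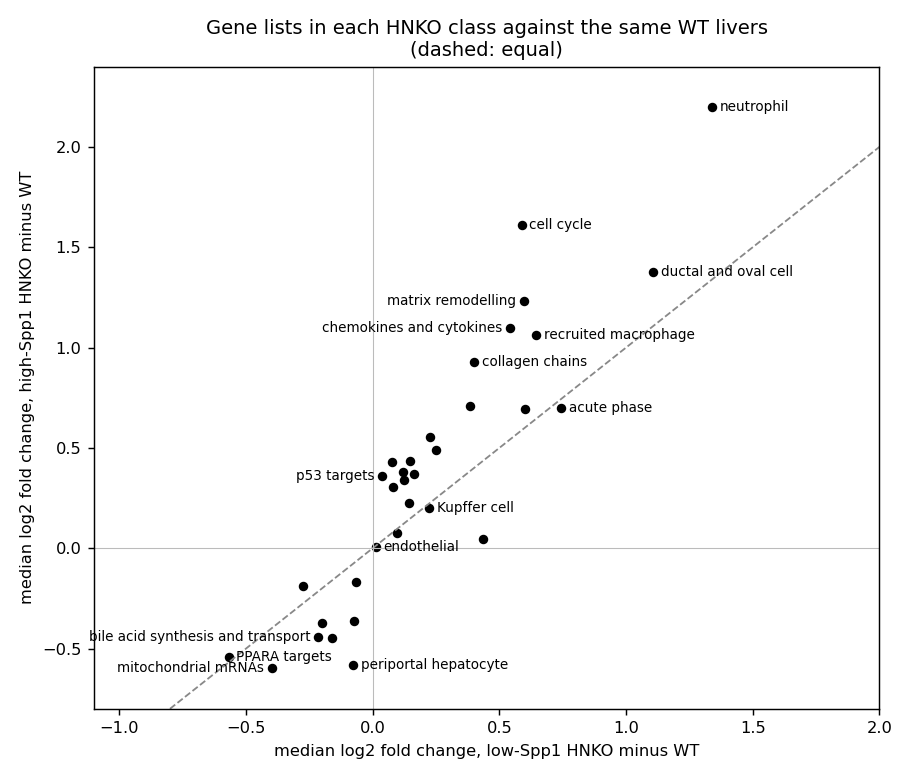
Median log2 fold change against WT of each gene list in low-Spp1 (horizontal axis) and high-Spp1 HNKO livers (vertical axis), with equal values on the dashed line. Cell cycle genes lie at 0.59 and 1.61, far above the line, and acute phase genes and PPARA targets lie close to it, and both axes use the same 19 WT libraries.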

How the data were processed

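The authors aligned 51-bp paired-end reads to GRCm38 with STAR 2.7.2b, counted fragments on GENCODE M22 genes with featureCounts 1.6.4 and deposited the raw counts of 40 libraries as 1 table of genes. The use of the strand in counting is not given in the sources used here, so reads of overlapping or antisense genes may be shared. Libraries 17 and 18 of HNKO mice (day 21), marked Failed QC, were used only as an alternative. The count table held 0 columns of no mapped sample.

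From these counts, classes were set by the rule given above. Genes were kept by edgeR's filter (minimum count 10, minimum total count 15, minimum proportion 0.7), scaled by TMM and fitted in edgeR 4.0.16 (R 4.3.3, legacy dispersion) with day and class over the 19 HNKO libraries, or day and the classes WT, low and high over 38 libraries. Adjustment of p-values (Benjamini-Hochberg) covered all tested genes except Spp1, and genes under 0.05 were called. Standard errors are those that the test statistic implies. Levels are log2 CPM with a prior count of 2, given as the lowest, median and highest value of a class. Gene lists were described by counts and medians only. Stretches of 51 bases were compared between transcripts of GENCODE M21, and promoters came from RefSeq. The self-test on simulated data was passed.

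Each library is 1 mouse. Total counts of the 38 libraries ranged from 16151037 to 64181492 (median 26466478.5), and pairs of libraries of a group differed by more than counting error. Depth, the spread between mice and the 9 and 10 livers per class limit how precisely a difference is known.

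Named genes were Spp1, Nampt, the called genes with the smallest p-values and a symbol of no predicted gene (15 per direction), up to 6 called members of each list or else its 2 most abundant members, and the 8 genes most correlated with Spp1. Epcam, Ncam1, Krt7, Krt19, Acta2, Ptprc, Mki67 and Alb were added as markers, and further list members are named as called or as uncalled examples, chosen after their values were seen. The classes, the members and the lists were chosen with earlier results of these data known. Alternatives were RLE factors, DESeq2 1.42.0, other filters, the edgeR 4 computation, robust estimation, continuous Spp1, classes from TMM-scaled Spp1, removal of libraries within 0.25 of the boundary, inclusion of Failed QC libraries, the run of library numbers as covariate, the fit of 38 libraries and removal of each day and each library. Total counts without factors and the removal of libraries 29 and 37 together, and of library 35 from the ductal comparisons with WT, were chosen after seeing the data. Values of 2 list members are not reported here.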

Additional observations from a re-analysis of the deposited data

Results flagged for a closer look

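In 280 groups of day-centred values (140 genes in the high or the low class), the highest or lowest library stood apart from the nearest other by more than Dixon's 95% limit in 13 cases. Chance flags about 1 in 20 groups, so the 13 cases are about as many as chance gives and are listed as a description. HNKO library 35 of the low class stood above the other low-Spp1 livers in Krt19 (3.50 above the mean of its day, next 0.58), Epcam (1.38, next 0.28) and Krt7 (1.32, next 0.26), and below them in Serpina1c (-0.50) and the clock factor Tef (-0.79). HNKO library 29 of the high class stood above the other high-Spp1 livers in Krt8 (0.88) and Plk2 (0.67) and below them in Tef (-1.85) and Nr1d2 (-1.1). HNKO library 11 of the low class stood above the others in Acta1 (6.83, next 0.67), Cldn4 (0.88) and Tyrobp (0.19), and library 12 of the high class in Dapk1 (0.05).

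The 2 libraries marked Failed QC were outside the main comparisons and were used only as an alternative. Spp1 was 6.72 in library 17 and 8.08 in library 18 on the log2(CPM + 1) scale, both above the highest WT value of the same day, 5.38.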

How the results depend on the processing

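With each HNKO library left out in turn, the genes called higher ranged from 17 to 1018 and the genes called lower from 4 to 679, beside 569 and 289. Higher and lower counts were 1851 and 1511 with continuous day-centred Spp1, 1070 and 573 with classes from TMM-scaled Spp1 (1 library changed class), 1047 and 525 without the 6 libraries within 0.25 of the boundary, 28 and 9 with the 2 Failed QC libraries (library 40 moved from the low to the high class), 945 and 628 with the run of library numbers as covariate, 829 and 465 in the fit of 38 libraries, 784 and 486 with no filter beyond 1 count, 1062 and 881 with DESeq2 and 1926 and 159 with total counts alone. They were 0 and 0 without day 3, 152 and 70 without day 6, 1207 and 726 without day 12, 11 and 1 without day 21, and 0 and 0 without libraries 29 and 37 together. RLE factors, the stricter filter, the edgeR 4 computation and robust estimation moved neither count by 1.5 times. Counts against WT stayed within 1.5 times (2529 to 3556 in the low class, 6708 to 8165 in the high class), and the interaction gave 0 genes with RLE factors. The cause of these changes was not tested. No paired analysis was possible because the library numbers are unique and no number is shared between groups.

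Among the 139 named genes tested, sign changes occurred in genes that were not called and in 0 of the 115 called genes, which were chosen by their call in the main fit. Stab2 was -0.000850 with RLE factors, -0.0012 with continuous Spp1, -0.000551 with DESeq2 and -0.0054 without libraries 29 and 37. Cd5l was -0.022 with continuous Spp1 and -0.0015 without day 3. Epcam was 0.078 with continuous Spp1, 0.0023 without the boundary libraries, 0.18 with Failed QC libraries, 0.35 without day 12 and 0.10 with total counts. Gpm6a was -0.11 with TMM classes, -0.026 in the fit of 38 libraries, -0.34 without day 3 and -0.070 without libraries 29 and 37. Acta1 was -0.42 in the fit of 38 libraries, -0.028 without day 3, -0.80 without day 21 and -0.87 without libraries 29 and 37. Muc16 was -0.34 without day 3. Krt7 was -0.14 without day 3 and -0.039 without libraries 29 and 37. Nampt was 0.047 without day 6, 0.054 with total counts and 0.023 without libraries 29 and 37. Ptch1 was 0.042 without day 12, 0.12 with total counts and 0.013 without libraries 29 and 37. Also, mt-Co1 was 0.0029 without day 6, Hbb-bs 0.21 and Krt19 0.13 without day 12. With 1 library left out the ranges were -0.010 to 0.029 (Stab2), -0.15 to 0.25 (Gpm6a), -0.050 to 0.13 (Cd5l), -0.034 to 0.54 (Muc16), -0.80 to 5.42 (Acta1), -0.070 to 0.015 (Ptch1), -0.0066 to 0.094 (Stab1), -0.15 to 0.20 (Epcam), -0.54 to 0.47 (Hbb-bs) and -1.03 to 0.093 (Krt19).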
